A study of Mus musculus with 146 samples.

Results

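Kinesin genes were taken as the gene symbols that consist of Kif or Kifc, a number and at most 1 further letter, and 41 of the 52605 gene symbols in the data met that rule. Their levels were read in single germ cells of newborn ovaries (P0.5, 0.5 days after birth) from C57/BL6J mice, by Smart-seq2, a method that copies polyadenylated RNA of 1 cell along its whole length. Pups of a single litter gave the ovaries, no animal is named for any cell, and germ cells were picked by mouth pipette for their size after trypsin digestion, so all cells shared strain, age and treatment and counted as 1 sample. No p-value was therefore computed. The study asked how germ cells differ while cysts break down and primordial follicles form, and it sorted the cells into 3 clusters by 20 germ cell and oocyte genes. The clusters were rebuilt here from 20 genes, none of them a kinesin gene, and are called by number. All but Taf4b are listed as clustering genes in the text of the study. The clusters run from cluster 1, with the highest means of the meiotic genes Sycp2 and Stag3, to cluster 3, with the highest means of the zona pellucida genes and Gdf9.

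Kinesins are motor proteins that use ATP to move along microtubules, to slide them past each other or to take them apart. Some carry organelles, vesicles and protein complexes, others build the spindle and the midzone that closes cell division, and others act in cilia. Germ cells of a newborn ovary have left the mitotic cycle and are arrested, or about to arrest, in meiotic prophase, while organelles move between the cells of a cyst along microtubules. The 41 genes were sorted by known roles into cargo transport (15 genes), spindle and cytokinesis (12 genes), microtubule depolymerases (4 genes) and cilia and other roles (10 genes).

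Of the 146 libraries, 7 pairs held nearly the same values although the labels list them as separate cells. Libraries S140 to S146 paired with libraries S045, S046, S058, S062, S063, S123 and S124. The correlation of log2(TPM + 1) over 18442 genes was 0.984 to 0.993 within these pairs, 0.824 in the next closest pair and 0.623 in the median pair. Their counts still differed by more than sampling noise (chi-square per gene 1.95 to 5.42, against 256 in the next closest pair). Each such pair was averaged and counted as 1 cell. Library S029, with Ddx4 at 0 TPM, was left out because germ cells express this RNA helicase. The cells kept were 19 in cluster 1, 86 in cluster 2 and 33 in cluster 3. The clusters of the study had other sizes, with more cells in cluster 3. Its filters on counts, mitochondrial reads and spike-in share were not applied here.

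The depth was 4837060 to 33117400 estimated reads per cell (median 9669900), and the medians of clusters 1 to 3 were 9615240, 9317550 and 10711100 reads. The spike-in RNA, added to the lysate of each cell, took a median of 10423 TPM in cluster 1, 12207 TPM in cluster 2 and 6735 TPM in cluster 3, so less spike-in per cell RNA was read in cluster 3. Of 6 germ cell markers, Ddx4 was at 7.49 TPM or more in each cell kept, a floor set in part by selection at 1 TPM. The lowest values of Dazl and Sycp3 were 93.3 and 70.5 TPM. Stk31 fell to 1.12 TPM and Mael to 0.09 TPM, and Tdrd1 was at 0 in 1 cell. Summed, the 6 markers had medians of 3658, 4693 and 2536 TPM in clusters 1 to 3. From cluster 1 to 3 the means of 4 markers fell by 1.5-fold or more, while that of Tdrd1 rose (log2 ratio 2.44). The sum of 9 pregranulosa markers ranged from 0 to 64.2 TPM in cluster 1, from 0 to 81.6 TPM in cluster 2 and from 0 to 13.7 TPM in cluster 3. The libraries had been screened by qPCR and those positive for the defining marker Foxl2 removed, so its level was set in part by selection. Foxl2 was at 0 in 130 cells, and Nr5a1 was at most 0.37 TPM in any cell. The sum of 7 stromal markers reached 293.7, 873 and 81.5 TPM in clusters 1 to 3. The blood and endothelial sum, nearly all of it the haemoglobin genes Hbb-bs and Hba-a1, had medians of 41.1, 46.9 and 19.8 TPM and reached 165081 TPM in 1 cell of cluster 1. The part of depth, spike-in share and these markers in the differences between clusters was not tested.

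Within the near-identical pairs, kinesin values differed little. Among kinesin values of at least 5 TPM in either library of a pair, the median absolute difference was 0.12 on the log2(TPM + 1) scale and the 90th percentile was 0.41. The difference passed 1.5-fold in 4 values, the highest being Kif18b in libraries S124 and S146 (2.15, from 3 and 22 reads). The next, Kif22 in the same 2 libraries, was well read and still differed by 0.85 (82.5 and 45.2 TPM, from 445 and 868 reads). No kinesin gene was at 0 in one library and at 5 TPM or more in the other. Between different cells the median absolute difference was 2.62 on the same scale, so the spread between cells described below was far larger than the spread within these pairs. How these pairs arose is not given in the sources used here, so whether both members come from 1 cell or 1 library was not tested, and losses in lysis, reverse transcription or amplification may not be measured by them.

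**Figure D1:**
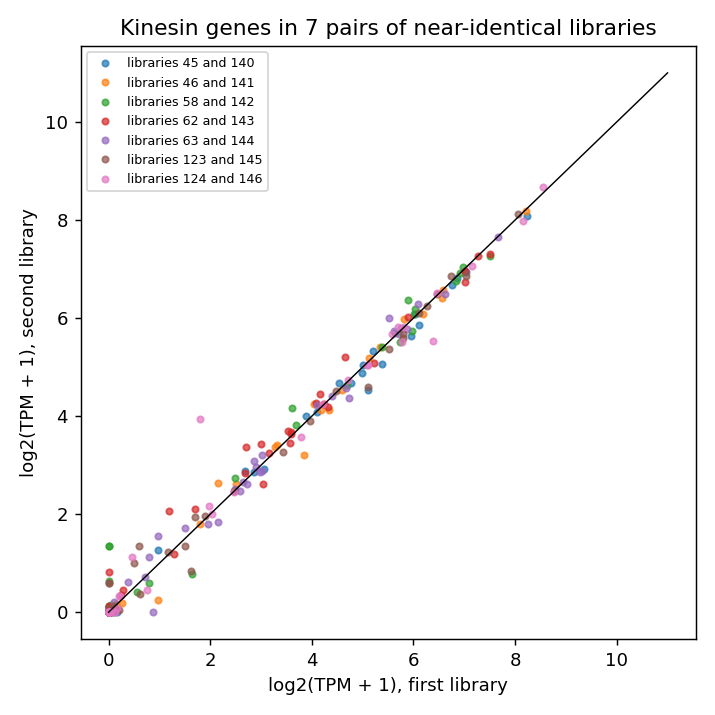
Kinesin genes in the 7 pairs of near-identical libraries. Each point is 1 gene, with log2(TPM + 1) in the first library on the x axis and in the second on the y axis. The line marks equal values and colours mark the pairs. Most points above 4 lie close to the line, but Kif22 in libraries S124 and S146 (82.5 and 45.2 TPM) does not. The widest gap among values of at least 5 TPM is Kif18b in libraries S124 and S146.

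Promoter sequences of 33 of the 41 genes were read from RefSeq (build GRCm38.p6), as the 250 bases before the start. They are shown for 4 genes whose difference between clusters 3 and 1 held under every alternative setting and whose window holds no annotated exon, the 2 with the highest mean in each direction. Kif11 and Kif3c were lower in cluster 3, and Kif9 and Kif21a were higher. Capitals mark matches on either strand to TTTGAA and CCAAT, motifs known from promoters of cell cycle genes.
Kif11 (chr19:37376132-37376381, plus strand): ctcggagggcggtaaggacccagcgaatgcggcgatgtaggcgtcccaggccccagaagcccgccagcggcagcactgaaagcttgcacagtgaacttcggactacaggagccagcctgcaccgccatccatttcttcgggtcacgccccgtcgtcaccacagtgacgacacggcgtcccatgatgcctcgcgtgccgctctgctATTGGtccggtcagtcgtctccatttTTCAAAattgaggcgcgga
Kif3c (chr12:3364882-3365131, plus strand): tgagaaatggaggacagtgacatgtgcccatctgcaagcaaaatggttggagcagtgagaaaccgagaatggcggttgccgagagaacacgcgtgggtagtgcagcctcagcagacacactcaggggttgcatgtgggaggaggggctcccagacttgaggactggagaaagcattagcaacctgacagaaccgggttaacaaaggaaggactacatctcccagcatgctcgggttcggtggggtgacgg
Kif9 (chr9:110476708-110476957, plus strand): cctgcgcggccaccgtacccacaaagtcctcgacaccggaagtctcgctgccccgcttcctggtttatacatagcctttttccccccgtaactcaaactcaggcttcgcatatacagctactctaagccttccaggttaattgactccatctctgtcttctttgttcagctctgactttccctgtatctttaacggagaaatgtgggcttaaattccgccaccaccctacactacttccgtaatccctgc
Kif21a (chr15:91049952-91050201, minus strand): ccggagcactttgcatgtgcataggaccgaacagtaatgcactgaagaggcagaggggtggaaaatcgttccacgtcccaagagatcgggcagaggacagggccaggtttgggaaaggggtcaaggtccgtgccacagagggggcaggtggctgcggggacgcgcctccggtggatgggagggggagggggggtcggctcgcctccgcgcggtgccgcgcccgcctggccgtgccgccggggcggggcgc

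Of these 4 windows, that of Kif11 held a match to each motif, and the letters were not in the windows of Kif3c, Kif9 and Kif21a. TTTGAA or its complement stood in 4 of 11 spindle and cytokinesis windows (36.4%) and in 0 of 10 cargo transport windows, against 16% of all 32851 promoter windows of that length. CCAAT or its complement stood in 8 of 11 spindle windows (72.7%) and 3 of 10 cargo windows (30%), against 33.8% of all. For TTTGAA and CCAAT in turn, the shares were 25% and 37.5% of 8 cilia and other windows and 25% and 50% of 4 depolymerase windows. Over all 33 kinesin windows they were 21.2% and 48.5%. A match is a run of letters and not a measured site.

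Kinesin genes together took a mean of 936 TPM per cell (SD 353, over the cells of the 3 clusters), with a lowest value of 193, a median of 901 and a highest of 2850 TPM. Of the 41 genes, 33 had a mean of at least 1 TPM. The spindle and cytokinesis genes made up 51.1% of this sum, the cargo genes 38.4%, the depolymerases 6.58% and the cilia and other genes 3.93%. By summed TPM the division motors thus stood above the transport motors. The median cell of cluster 1 held 1052 kinesin TPM (lowest 461, highest 2164), that of cluster 2 held 846 (193 to 1731) and that of cluster 3 held 896 (560 to 2850), and the 3 ranges overlapped widely. The log2 ratio of means for cluster 3 over 1 was -0.07 in TPM and 0.53 with levels scaled to the spike-in RNA.

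A cell held reads of a median of 21 kinesin genes once 1000000 reads had been drawn from every cell, with a lowest value of 8 and a highest of 31. The medians in clusters 1, 2 and 3 were 20, 19 and 24 genes on drawn reads, and 24, 23 and 29 genes on all reads. The range in cluster 3 (16 to 31) overlapped those of clusters 1 (13 to 28) and 2 (8 to 26). More coding genes of all kinds were read in cluster 3 as well, with medians of 7827, 7552 and 8953 genes on drawn reads in clusters 1 to 3.

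**Figure D2:**
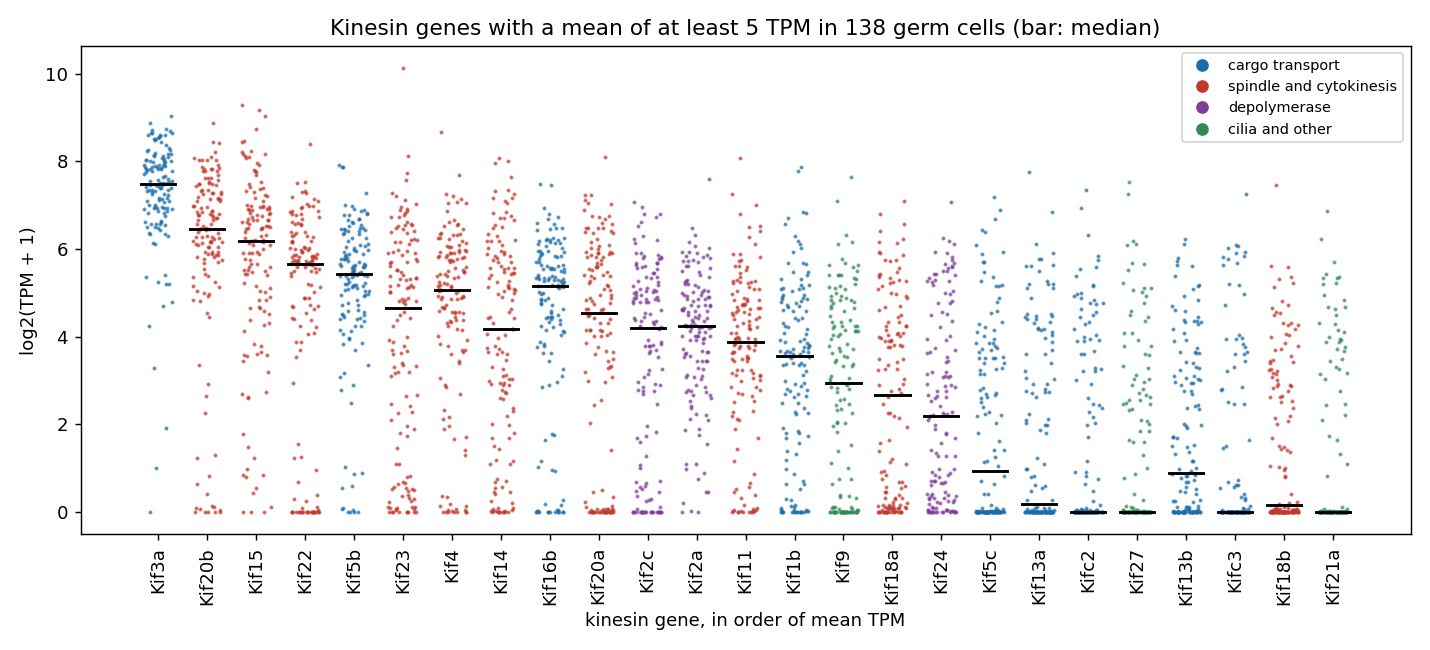
Levels of the 25 kinesin genes with a mean of at least 5 TPM. The x axis lists genes by mean TPM, the y axis is log2(TPM + 1), each point is 1 cell, bars are medians and colours mark roles; Kif3a stands highest and is near 0 in few cells, while from Kif5c rightwards many cells are at 0.

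Kif3a, the motor subunit that kinesin-2 uses for transport within cilia and of vesicles, had the highest level, with a mean of 195 TPM (SD 109.4), a lowest of 0, a median of 177 and a highest of 522 TPM. It was at 1 TPM or more in 99.3% of the cells (all but 1). Its medians in clusters 1 to 3 were 189, 167 and 181 TPM, with ranges of 26.6 to 471, 0 to 522 and 68.4 to 409 TPM, which overlapped widely. The log2 ratio for cluster 3 over 1 was 0.09 in TPM, and 0.74 with levels scaled to the spike-in RNA. Its partner in the motor, Kif3b, was measured at a mean of 3.15 TPM and was at 1 TPM or more in 40 of the cells with Kif3a. The alternative partner Kif3c was at a mean of 1.6 TPM. In 54 of these cells both partners were at 0 TPM, while Kifap3, which links the motor to cargo, was at 0 in 4 cells and had a mean of 24.8 TPM.

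This gap depended in size, but not in direction, on how the length of the transcripts was counted. Kif3a exceeded Kif3b 61.9-fold in mean TPM and 25.2-fold in CPM (reads scaled to 1000000 per cell) per kilobase of the longest coding transcript. The length behind the TPM of Kif3a had a median of 1264 bases, or 40% of its longest coding transcript, whereas that of Kif3b was 5689 bases, close to its longest coding transcript of 5635 bases. A TPM built on short transcripts gives more units per read, so such levels do not rank as full-length messages.

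Spindle and cytokinesis genes held places 2 to 4 by mean TPM, ahead of the cargo gene Kif5b, and 5 of the next 9 places. Kif20b, a motor of late cytokinesis, had a mean of 107.8 TPM (lowest 0, median 86.9, highest 471), and Kif15, which supports the bipolar spindle, had 100.9 TPM (0, 72.2 and 623). Kif22 and Kif4, chromokinesins that bind chromosome arms, had means of 52.7 and 43.2 TPM. Kif23, the motor of centralspindlin in the midzone, had 46.7 TPM, and 17.3% of its summed TPM came from 1 cell at 1114 TPM. Kif14, a midbody motor, had 39.2 TPM, Kif20a, which brings the Aurora B complex to the midzone, 35.8 TPM, and Kif11, the motor that pushes spindle poles apart, 23.1 TPM. Kif18a, which damps chromosome movement, had 15.7 TPM, and its relative Kif18b had 6.91 TPM. Kifc1, a minus-end motor of the spindle, had 4.66 TPM and Kifc5b, a close copy of Kifc1 that may share its reads, 1.71 TPM.

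Counted by CPM per kilobase of the longest coding transcript, the order changed below Kif3a. Kif3a stayed first at 70.4 CPM per kilobase, followed by Kif22 at 38.5, Kif4 at 36.5, Kif20b at 33.4, Kif20a at 29.3 and Kif15 at 25.7. Kif15 and Kif20b thus stood ahead of Kif22 and Kif4 by TPM, and Kif22 and Kif4 stood ahead of them on this scale.

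Among the cargo genes, Kif5b, the conventional kinesin found in most tissues, had a mean of 51.3 TPM, while its relatives Kif5c and Kif5a, best known from neurons, had 11.3 and 0.91 TPM. Kif16b, which moves early endosomes, had 37.5 TPM, and Kif1b, a carrier of mitochondria and vesicles, had 20.5 TPM. Kif13a and Kif13b, motors of endosomes and vesicles, had 10.54 and 7.68 TPM. Kifc2 and Kifc3, minus-end motors, had 9.08 and 7.58 TPM. Kif17, Kif1c and Kif1a had means of 2.62, 1 and 0.17 TPM. Kif2a and Kif2c, the depolymerases of spindle poles and centromeres, had 23.6 and 24.5 TPM, the centriole-linked Kif24 had 13.3 TPM, and Kif2b had at least 1 TPM in 1 cell. Of the cilia and other genes, Kif9 had 15.7 TPM, Kif27 8.87 TPM, Kif21a 6.48 TPM, Kif21b 2.16 TPM and Kif6 1.69 TPM, and Kif7, Kif26a, Kif26b and Kif19a had means below 1 TPM. A single cell gave 35.6% of the summed TPM of Kif21b, 49.3% of that of Kif6 and 46.7% of that of the cargo gene Kif1a. Kif12 was at 0 in every cell kept.

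Clusters 3 and 1 were compared by the log2 ratio of mean TPM after adding 1 to both means, and a gene was called higher or lower at 1.5-fold or more, if its mean reached 1 TPM in one of them. The ratio is not a test. Of 35 kinesin genes compared, 12 were higher in cluster 3 (34.3%), 10 were lower (28.6%) and 13 were neither. Of all 11996 coding genes compared, 27.9% were higher and 36.8% were lower. Their shares were thus near those of all genes, with somewhat more higher and fewer lower calls, and the median log2 ratio was 0.02 for kinesin genes and -0.19 for all genes. With Ward clusters the shares lay at those of all genes, with 9 of 34 kinesin genes higher and 13 lower, against 25.9% and 38.3% of all genes, and the medians changed order (-0.30 for kinesin genes and -0.25 for all genes). Single motors differed in both directions, while the summed TPM differed little (-0.07, but 0.53 with spike-in scaling).

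By role, 6 of 14 cargo genes were higher (42.9%) and 4 lower (28.6%), against 27.9% and 36.8% of all 11996 coding genes compared. Of the 12 spindle and cytokinesis genes, 3 were higher and 3 lower (25% each). Of the 5 cilia and other genes compared, 3 were higher (60%) and 1 lower (20%). Of the 4 depolymerases, 0 were higher and 2 lower (50%), and the lower call of Kif2b rested on 1 cell (library S107). The lower cargo calls of Kif5b, Kif3b and Kif5a also ended with 1 cell left out, as did the higher cargo calls of Kifc2 and Kif1b. With each call repeated under 11 alternative settings, 6 of the 12 higher calls (Kif9, Kifc3, Kif16b, Kif21a, Kifc1 and Kif4) and 5 of the 10 lower calls (Kif18a, Kif3c, Kif11, Kif24 and Kif15) held in all of them. Among these settings, the clusters made from variable genes held 66, 35 and 37 cells. Their cluster 1 took in 47 cells of the main cluster 2, so their ratio of cluster 3 over 1 is not the same contrast.

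**Figure D3:**
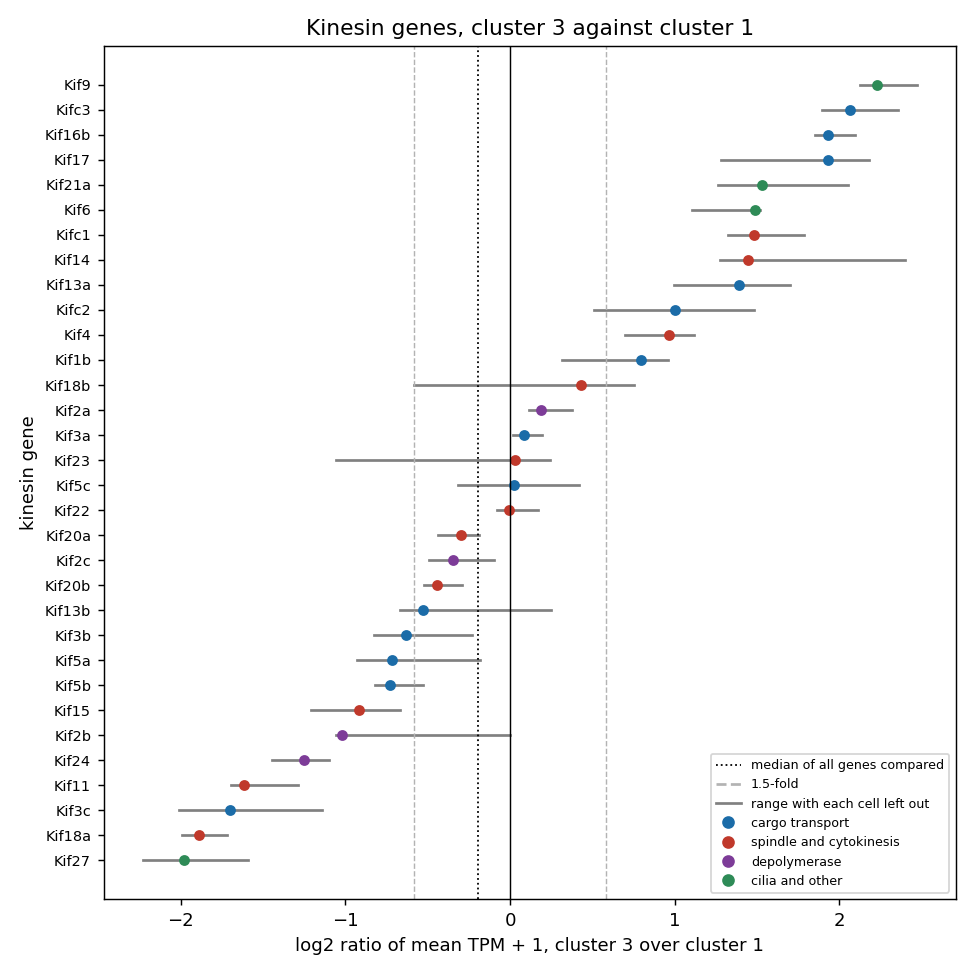
Log2 ratio of mean TPM + 1, cluster 3 over cluster 1 (x axis), for the 32 kinesin genes named by level or difference (y axis). Points are ratios coloured by role, grey lines the range with each cell left out in turn, dashed lines 1.5-fold and the dotted line the median of all genes compared (-0.19); Kif9 stands highest at 2.23 and Kif27 lowest at -1.98, and the line of Kif23 runs from -1.06 to 0.24.

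Kif9, a motor linked to motile cilia, had the largest ratio (2.23, and 2.13 to 2.47 with each cell left out). With clusters made from variable genes instead, its ratio was 1.03, below those of Kif17 (2.22), Kifc1 (1.80), Kif21a (1.72), Kifc3 (1.55), Kif4 (1.27), Kif14 (1.22) and Kif16b (1.06). The first place also went to other genes by CPM and with spike-in scaling (Kif17, 2.85 and 2.92), with Ward clusters (Kif17, 2.27), with a pseudocount of 0.1 (Kif6, 4.25), by mean log2(TPM + 1) (Kif14, 3.11) and without the tenth of cells with fewest reads (Kifc3, 2.31). Its lowest, median and highest values were 0, 0.09 and 19.3 TPM in cluster 1, 0, 4.51 and 198 TPM in cluster 2, and 0, 18 and 79 TPM in cluster 3. It was at 1 TPM or more in 42.1% of cluster 1 cells (exact 95% interval 20.3 to 66.5), 61.6% of cluster 2 cells (50.5 to 71.9) and 90.9% of cluster 3 cells (75.7 to 98.1), intervals that cover counting error only. The values overlapped, but the median cell of cluster 3 was close to the highest cell of cluster 1.

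Kif16b was higher in each later cluster (log2 ratio 1.93 for 3 over 1, 1.85 to 2.10 with each cell left out). Its lowest, median and highest values were 0, 15.4 and 48.9 TPM in cluster 1, 0, 33.8 and 110.7 TPM in cluster 2, and 0.12, 60.1 and 177 TPM in cluster 3. More than 50% of the cluster 3 cells thus lay above every cell of cluster 1. The length behind its TPM differed as well, with medians of 4621 bases in cluster 1 (14 cells), 4458 in cluster 2 (74 cells) and 2812 in cluster 3 (32 cells). Counted by reads, without the length, the log2 ratio was 1.56.

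Kif21a, which slows microtubule growth at the cell cortex, was seen mainly in cluster 3. It was at 1 TPM or more in 36.8% of cluster 1 cells (interval 16.3 to 61.6), 11.6% of cluster 2 cells (5.72 to 20.3) and 78.8% of cluster 3 cells (61.09 to 91.02). Its medians were 0, 0 and 13.6 TPM and its highest values 39.5, 73.9 and 115.4 TPM. The log2 ratio was 1.53 for cluster 3 over 1 and 2.32 for 3 over 2, the largest of any kinesin gene between those neighbours.

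Kifc3 (log2 ratio 2.06) and Kifc1 (1.48) were higher in cluster 3 at lower levels. Kifc3 had means of 2.6, 6.2 and 14 TPM in clusters 1 to 3, and Kifc1 had 2.3, 3.9 and 8.1 TPM. The share of cells with at least 1 TPM was lowest in cluster 2 for both. It was 26.3%, 17.4% and 48.5% for Kifc3 in clusters 1 to 3, with medians of 0, 0 and 0.65 TPM, and 42.1%, 36% and 69.7% for Kifc1. Kif4 had medians of 28, 32.6 and 39.6 TPM and a log2 ratio of 0.96, with 1 cell of cluster 3 at 404 TPM, and the ratio was 0.70 to 1.12 with each cell left out. Kif14 had medians of 0.61, 11.6 and 36.8 TPM and was at 1 TPM or more in 47.4%, 81.4% and 100% of the cells of clusters 1, 2 and 3. Its log2 ratio was 1.45, and 2.40 without 1 cluster 1 cell (library S059, 199.9 TPM). With the left-out cell, library S029, included, the clustering placed that cell in cluster 1 and the ratio was 0.36.

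The other calls of a higher level rested on few cells or on the clustering. Kif17, at 1 TPM or more in 1 cell of cluster 1 and 6 of cluster 3, had a ratio of 1.93, and 1.28 without library S006. Kif6, at 0 in all 19 cells of cluster 1, had a mean of 1.8 TPM in cluster 3, where 26 of 33 cells were at 0. Kif13a had a ratio of 1.39 with medians of 0 and 5.59 TPM in clusters 1 and 3, and was no longer called with Ward clusters (0.31) or clusters from variable genes (0.20). Kifc2 (1.00) and Kif1b (0.79) were no longer called without library S053 (0.51 and 0.32). Both calls were also lost with Ward clusters (0.24 and -0.26) and with clusters from variable genes (0.41 and -0.54), and each held in 5 of 11 alternatives.

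**Figure D4:**
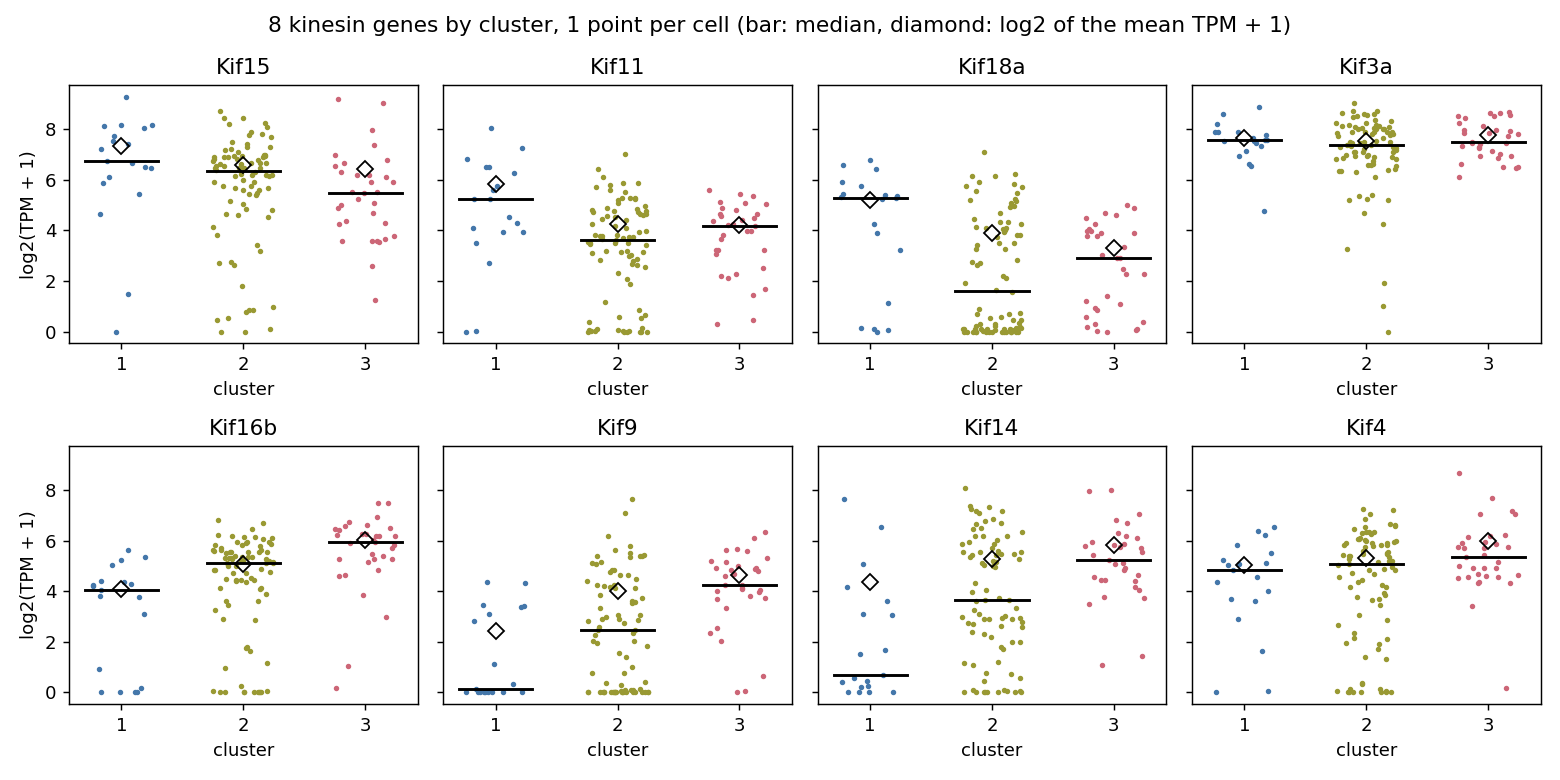
Values of 8 kinesin genes by cluster (x axis) as log2(TPM + 1) (y axis), 1 point per cell, with the median as a bar and the log2 of the mean TPM + 1 as a diamond. Kif11 and Kif18a lie highest in cluster 1, Kif3a has like medians, and Kif16b, Kif9 and Kif14 have a higher median in each later cluster, with overlapping cells throughout.

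Kif11 and Kif18a were lower outside cluster 1. Kif11 had lowest, median and highest values of 0, 36.6 and 267 TPM in cluster 1, 0, 11.5 and 127.8 TPM in cluster 2, and 0.24, 17.3 and 47.9 TPM in cluster 3. The log2 ratio was -1.62 for cluster 3 over 1 and -1.58 for 2 over 1, so the difference lay between clusters 1 and 2. With clusters from variable genes, whose cluster 1 was mostly made of cells from the main cluster 2, the ratio for cluster 3 over 1 was -0.97. That of Kif18a was -1.07. Kif18a had 0, 37.9 and 109.9 TPM, then 0, 2.04 and 136.3 TPM, then 0, 6.50 and 31.2 TPM (log2 ratio -1.89). It was at 1 TPM or more in 78.9% of cluster 1 cells, 51.2% of cluster 2 cells and 69.7% of cluster 3 cells.

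Kif15 had medians of 105.4, 80.3 and 44 TPM and a log2 ratio of -0.92, and its highest values (623, 424 and 579 TPM) were of like size in the 3 clusters. Kif24 had medians of 15.1, 2.36 and 1.69 TPM (-1.25). Kif3c was at 1 TPM or more in 36.8% of cluster 1 cells (16.3 to 61.6), 7% of cluster 2 cells and 9.1% of cluster 3 cells (-1.70). Kif27, a relative of the Hedgehog regulator Kif7, had means of 12.3, 10.6 and 2.4 TPM, with the lowest ratio (-1.98), a place that Kif18a, Kif3c, Kif24 or Kif2b took under other settings, and was no longer called with clusters from variable genes (-0.36).

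Kif5b (-0.73), Kif3b (-0.63), Kif5a (-0.72) and Kif2b (-1.02) were lower by calls that 1 cell could end. In that order, these calls held in 6, 7, 8 and 8 of 11 alternatives. By mean log2(TPM + 1) the ratios were -0.21, -0.19, -0.21 and -0.23, all within 1.5-fold. With spike-in scaling those of Kif5b and Kif3b were -0.14 and -0.03, and by CPM that of Kif5b was -0.18. Without library S103 the ratio of Kif5b was -0.53, without library S086 that of Kif3b was -0.23, without library S018 that of Kif5a was -0.18, and without library S107, the 1 cell with at least 1 TPM of Kif2b, its ratio was 0.0019. The reverse held for Kif23, which was near 0 (0.03) only through library S012 at 1114 TPM. Without that cell its ratio was -1.06, and that of Kif18b changed from 0.43 to -0.58. The medians of Kif23 in clusters 1 to 3 were 41.5, 24.6 and 14.2 TPM.

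Kif22 (-0.01), Kif5c (0.02), Kif2a (0.19), Kif20a (-0.30), Kif2c (-0.35), Kif20b (-0.45) and Kif13b (-0.53) were within 1.5-fold, as were Kif3a, Kif23 and Kif18b. With spike-in scaling Kif22 (0.94), Kif2a (0.88), Kif13b (0.74) and Kif3a (0.74) were past 1.5-fold higher. With Ward clusters Kif23 (-1.02), Kif18b (-0.74), Kif2c (-0.70) and Kif13b (-0.66) were past it lower. By mean log2(TPM + 1) Kif2a (0.62) passed it, and with clusters from variable genes Kif5c (-0.62) did. Kif20b and Kif2c turned positive with spike-in scaling (0.37 and 0.26) and by mean log2(TPM + 1) (0.33 and 0.43). The ratio of Kif13b was -0.67 without library S091 and 0.25 without library S036, and that of Kif18b was 0.76 without library S103. That a ratio is within 1.5-fold does not show that the clusters were alike.

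Spindle genes were mostly lower, where called, in the step from cluster 1 to 2 and higher in the step from 2 to 3. In cluster 2 against 1, 1 of 12 spindle and cytokinesis genes was higher (Kif14) and 6 were lower (Kif11, Kif18a, Kif20b, Kifc5b, Kif15 and Kif23), while over all 37 kinesin genes compared 10 were higher and 11 lower, against 24.3% and 23.2% of all 11884 genes. In cluster 3 against 2, 4 of 12 spindle genes were higher (Kifc1, Kif4, Kif23 and Kifc5b) and 0 lower, while 9 of 35 kinesin genes were higher and 6 lower, against 17.9% and 28.9% of all 11912 genes. With 1 cell left out (S106 for Kif15 and Kif23 and S018 for Kifc5b in the first step, S012 for Kif4 and Kif23 and S078 for Kifc5b in the second), the ratios of Kif15 (-0.50), Kifc5b (-0.52) and Kif23 (-0.42) in the first step and of Kif4 (0.42), Kifc5b (0.44) and Kif23 (-0.42) in the second came within 1.5-fold. The summed spindle class had means of 647, 422 and 528 TPM in clusters 1 to 3, with ranges of 139.1 to 1581, 60.6 to 1135 and 207 to 2130 TPM that overlapped. The summed cargo class had means of 343, 345 and 406 TPM. Other units, spike-in scaling and other clusters are given for cluster 3 over 1 only, so how far these steps depend on them was not tested. The steps share cluster 2 and are not independent of each other, and the difference between them was not tested.

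Partners of the kinesins were compared in the same way for cluster 3 over 1, where 27.9% of all genes compared were higher, 36.8% lower and the median was -0.19. Of 17 light chains, adaptors and cargo links, 3 were higher (17.6%) and 8 lower (47.1%), with a median of -0.41. The highest mean in that list was that of Ktn1, a kinesin receptor of the endoplasmic reticulum (84.5 TPM), and the largest ratios were those of Trak1 (1.504) and Arl8a (1.25) and of Mapk8ip1 (-2.21) and Madd (-1.57). Of 25 dynein and dynactin genes, 7 were higher (28%) and 11 lower (44%), near the shares of all genes, and Dynlrb1, a dynein light chain, had the highest mean (701 TPM). Among them Dync1li2 (1.70) and Dynlrb1 (1.26) had the largest ratios, and Bicd1 (-3.40) and Actr10 (-2.03) the lowest.

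Of 27 spindle partners, 8 were higher (29.6%) and 14 lower (51.9%), against 27.9% and 36.8% of all genes (median -0.64). Birc5, of the Aurora B complex, had the highest mean (759 TPM). The kinase Aurkb (5.05) and its scaffold Incenp (1.20) had the largest ratios, and Racgap1, which forms centralspindlin with Kif23, (-1.51) and Mapre1 (-1.498) the lowest. Of 17 intraflagellar transport genes, which kinesin-2 moves, 3 were higher (17.6%) and 10 lower (58.8%), with a median of -1.22. Ift43 (3.26) and Ift27 (3.20) had the largest ratios and Ttc21b (-2.24) and Ift57 (-2.18) the lowest, and Ift27 had the highest mean (318 TPM). The related motors Cenpe and Stard9, which the symbol rule leaves out, had means of 48.8 and 5.87 TPM and log2 ratios of -0.65 and -0.27. Of 7 proliferation genes 2 were higher (28.6%, Ccna2 at 1.27 and Ccnb1 at 0.85) and 1 lower (14.3%, Top2a at -2.34), the highest mean was that of Ccnb1 (59.1 TPM), and Mki67 had a mean of 9.56 TPM.

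The transcript length behind a TPM could be read for 34 kinesin genes with at least 20 reads in 10 or more cells. In 14 of them the median length was at least 80% of the longest coding transcript in GENCODE M21, among them Kif4 (98.3%), Kif11 (97.5%), Kif20a (93.1%), Kif2c (93.1%) and Kif22 (92%). In 15 it was under 50%, among them Kif24 (23.8%), Kif15 (26.4%), Kif1b (31.8%), Kif20b (34.4%) and Kif3a (40%). Kif15 is annotated with 17 transcripts and Kif20b with 10, several of them short or with a retained intron. Kif15 had median lengths of 1724, 1320 and 921 bases in clusters 1 to 3, and Kif20b 2258, 1976 and 1634 bases, with ranges that overlapped. The reads that set these shares were not analysed here, so whether the short transcripts exist in the cells was not tested.

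**Figure D5:**
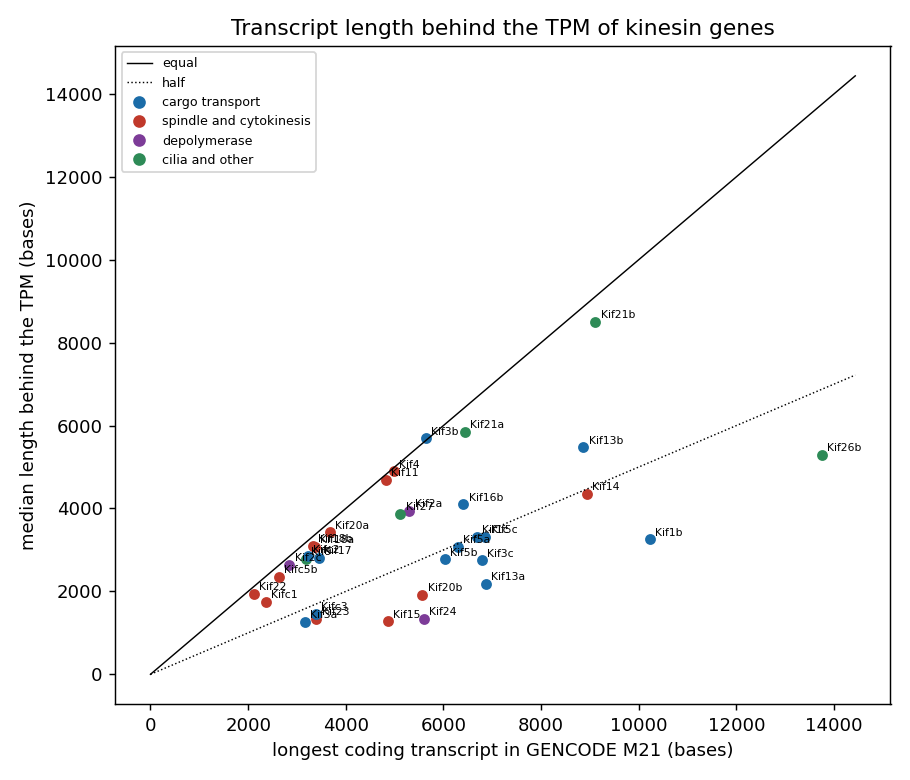
Median transcript length behind the TPM (y axis, bases) against the longest coding transcript in GENCODE M21 (x axis, bases) for 34 kinesin genes, coloured by role. The solid line marks equal lengths and the dotted line 50%; Kif4, Kif11 and Kif3b lie near the solid line and Kif15, Kif24 and Kif1b well below the dotted one.

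Rank correlations between kinesin genes across cells were low in TPM, with a median close to that of all genes. Over the 300 pairs of the 25 genes with a mean of at least 5 TPM, the median Spearman's rho across the cells was 0.06, 27 pairs were above 0.2, 0 were above 0.3 and 68 were below 0. The highest were Kif22 with Kif4 (0.30), Kif4 with Kifc3 (0.29) and Kif14 with Kifc3 (0.29), and the lowest were Kif1b with Kif20a (-0.15), Kif15 with Kif16b (-0.14) and Kif15 with Kif9 (-0.14). All pairs share the depth and total of each cell, and the values moved with the scaling. Over all pairs of 8925 coding genes of that level, the median rho was 0.05 in TPM, with 2.09% of pairs above 0.3. With levels scaled to the spike-in RNA the median rho was 0.21 between kinesin genes and 0.22 between all genes, with 30.3% and 28.2% of pairs above 0.3. The highest kinesin pairs on that scale were Kif16b with Kif3a (0.64) and Kif16b with Kif2a (0.56).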

How the data were processed

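RNA was measured by Smart-seq2 with ERCC spike-ins in 146 libraries, each labelled as a single cell. The authors quantified reads with Salmon against mm10 plus spike-ins and deposited, per gene symbol and library, TPM, estimated counts of reads and an effective length, with no further normalization. Kinesin genes, role classes, partner lists and markers were chosen with earlier results of these data known. The genes described one by one are kinesin genes with a mean of at least 5 TPM overall or in any cluster, or at least 1.5-fold apart between clusters 1 and 3 with at least 1 TPM in either, and of each partner list the highest mean and the 2 largest ratios in each direction. Genes named for few cells or short lengths, and the promoters shown, were chosen after their values were seen.

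Libraries correlated above 0.95 were merged (mean TPM, summed reads), which was decided after the data were seen. Symbols were matched to GENCODE M21 (28006 symbols) and RefSeq (303), 24296 had no match, and the background is the 13993 coding genes with at least 0.1 TPM in at least 10 cells. The 3 clusters were remade with Seurat 5.3.0 in R 4.3.3, using 20 genes, 10 components, 20 neighbours and resolution 0.2. The deposited length of a gene with several transcripts proved to be divided by about their number, so, unlike planned, the length behind a TPM was taken as reads over TPM times the constant that the spike-ins give in each library. Ratios and shares with exact 95% intervals were computed in Python 3.11.15 (pandas 2.3.3, NumPy 2.4.6, SciPy 1.17.1), and the calculations were tested on simulated data. Alternatives covered the cells used, units, spike-in scaling, depth, clusters, pseudocount, averaging and leaving out each cell. Depth limits single-cell values, so a value of 0 TPM means not detected at 4837060 or more reads per cell.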

Additional observations from a re-analysis of the deposited data

Results flagged for a closer look

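The cell left out of the comparisons, library S029, held kinesin reads that no comparison uses: 12 kinesin genes had more than 3 reads, the limit that a count of 0 allows. It had 1408460 reads, Ddx4 at 0 TPM and Dazl at 0.22 TPM, and its summed kinesin level of 1009 TPM lay within the range of the cells kept. Kif14 was highest in it at 503 TPM, above the highest cell kept (267 TPM), followed by Kif5b at 127.6 TPM and Kif4 at 123.1 TPM. What this cell is was not tested.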

How the results depend on the processing

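Scaling to spike-in RNA moved the median log2 ratio of all genes for cluster 3 over 1 from -0.19 to 0.45, the summed kinesin ratio from -0.07 to 0.53 and the median rho between kinesin genes from 0.06 to 0.21; 17 of 35 kinesin genes were then higher and 7 lower, close to the 45.4% and 19.8% of all genes, and 13 and 8 relative to the median of all genes (13 and 7 in TPM). Averaging log2(TPM + 1) left 6 kinesin genes lower in place of 10, and 28.6% of all genes lower in place of 36.8%. Kif1b was reversed with Ward clusters (-0.26) and with clusters from variable genes (-0.54), and Kif2b without 1 cell (0.0019, and -1.06 at the other end of the range). With each cell left out, the summed ratio was -0.15 to 0.01, the higher genes 10 to 14 and the lower genes 9 to 12. Counting each library as a cell, an alternative added after seeing the data, moved no ratio past a threshold (12 higher, 10 lower). No paired analysis was possible because all cells belong to 1 group. Cells are not replicates of an animal, so none of these ranges measures the error between animals, and genes seen in few cells are limited by the 19 cells of cluster 1.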

Other observations

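Rows that resemble kinesin genes but fall outside the symbol rule were low. The pseudogene Kif22-ps had a mean of 0.07 TPM and Kif4-ps 0.00039 TPM, so few reads of Kif22 and Kif4 were assigned to these copies. Kifc5c-ps, a copy of the Kifc1 group, had 0.50 TPM, with 67.5 TPM in its highest cell, and Kif16bos, antisense to Kif16b, had 0.11 TPM.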
